A study of Rattus norvegicus with 18 samples.

Results

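The 8 genes described here, from the antioxidant defense and the Nrf2 pathway, were followed through the rat bladder after spinal cord injury (SCI). They are Nfe2l2 (ENSRNOG00000001548), Hmox1 (ENSRNOG00000014117), Nqo1 (ENSRNOG00000012772), Gclc (ENSRNOG00000006302), Gclm (ENSRNOG00000013409), Sod1 (ENSRNOG00000002115), Sod2 (ENSRNOG00000019048) and Cat (ENSRNOG00000008364), chosen by name for their function. They are 8 of the 32754 genes in the count table, and all 8 were among the 15740 genes with over 1 CPM (counts scaled to a common library size) in at least 3 of the 18 libraries. Libraries of total RNA depleted of ribosomal RNA came from 6 groups of 3, which combine a tissue (detrusor, the smooth muscle wall, or mucosa, the urothelium with the tissue beneath it) with a treatment. The tissues were separated by microdissection. All groups were wild-type rats, which by the study's methods were male Sprague Dawley animals. Injured rats were 6 to 7 weeks old at surgery, and the study describes the Control rats as age-matched. Control rats were not injured. Rats of the SCI-vehicle and SCI-inosine groups had a complete cord transection at T8 and then received daily intraperitoneal injections for 8 weeks, of a sodium bicarbonate buffer in the first group and of inosine, a purine nucleoside, at 225 mg/kg/day in the second. No uninjured group received inosine or the buffer, and the study's methods name no sham operation. The comparisons of injured with Control rats therefore hold the injury, its surgery and the injections together.

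Nrf2, the protein made from Nfe2l2, is a transcription factor that is held in the cytoplasm and degraded while the cell is unstressed, and that accumulates in the nucleus when oxidants or electrophiles modify its partner Keap1. There it binds antioxidant response elements and raises enzymes that detoxify quinones, make glutathione and break down heme. Because Nrf2 is controlled mainly through the stability of the protein, its mRNA level is not a measure of its activity. Superoxide dismutases and catalase act one after the other: the former turn superoxide into hydrogen peroxide, and the latter turns hydrogen peroxide into water and oxygen.

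The clearest differences lay between the tissues. Nqo1, Gclc and Nfe2l2 mRNA were higher in mucosa and Sod2 mRNA was lower in mucosa under all 3 treatments, whereas Gclm and Cat did not pass the test between tissues under any treatment. Within a tissue none of the 8 genes passed the adjusted threshold between treatments. The widest difference within a tissue was that of Hmox1, at 5.97 CPM on average in Control detrusor and 25.5 CPM in SCI-inosine detrusor.

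Total counts ran from 3255012 to 6810496 per library, with a median of 5030414, and between 14126 and 18656 genes had a count. The share of the other tissue was estimated for each library from 313 mucosa and 342 detrusor genes that differed by over 4-fold in Control rats. It was 25.9% mucosa in detrusor SCI-vehicle replicate 1, while the other detrusor libraries lay between -1.53 and 10.5% and the mucosa libraries between -5.45 and 10.8% detrusor. Values without detrusor SCI-vehicle replicate 1 are given beside the results for Nfe2l2, Nqo1 and Gclc in SCI-vehicle detrusor. In bulk tissue a smaller number of cells of a type and less RNA per cell cannot be told apart. The study describes the libraries of a group as biological replicates. Each bladder was divided into detrusor and mucosa, but the sources used here do not say which libraries share a bladder, and the tests between tissues treat them as separate. Levels below are CPM scaled by the trimmed mean of M-values, and they are compared between groups for one gene, not between genes, since lengths were not used.

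**Figure D1:**
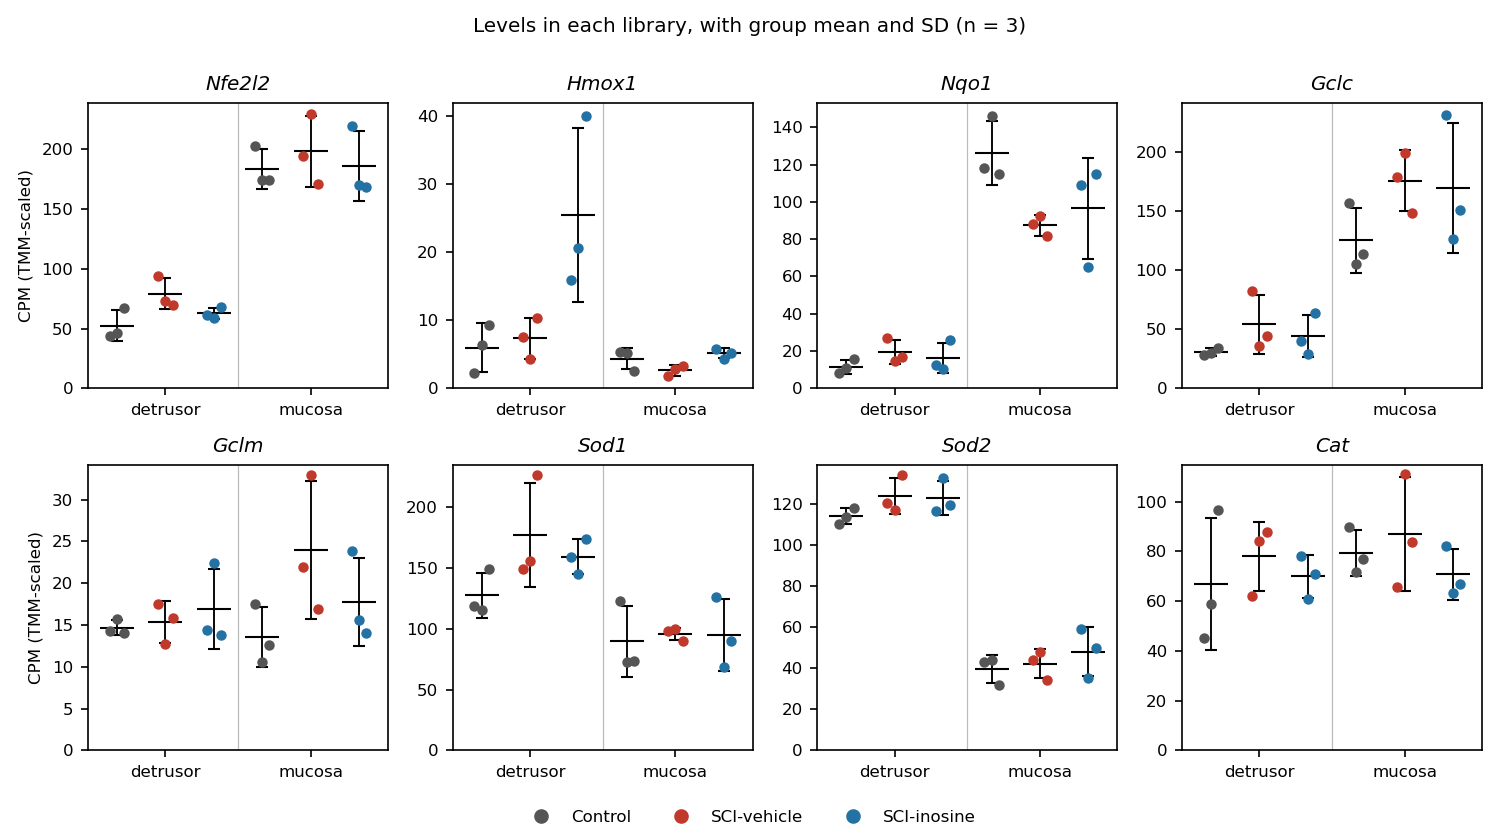
Level of each gene (CPM, linear axis from 0) in the 18 libraries, by tissue and treatment. Points are libraries, and bars are the group mean and SD (n = 3). Nfe2l2, Nqo1 and Gclc lie higher in all mucosa libraries than in all detrusor libraries, Sod2 lies lower, and Hmox1 is highest in the 3 SCI-inosine detrusor libraries.

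Promoters of 7 of the 8 genes, from 250 bases before to 50 bases after the start, were read from RefSeq (GRCr8). This build differs from Rnor_6.0, on which the reads were counted, and no measurement here was made at the promoters. Hmox1 had no entry. Both strands were searched for the antioxidant response element core, TGACNNNGC, and for the GC box GGGCGG, a general promoter motif bound by Sp1 family factors. The core occurred in 3 of the 7 windows, those of Nfe2l2, Gclm and Sod2, and in 12.1% of all 33469 promoters in the table. It did not occur in the windows of Nqo1, Gclc, Sod1 or Cat, which says only that these letters are not in this stretch. GC boxes numbered 6 in Nfe2l2, of which the last 2 share a base, 2 in Sod2, 1 each in Nqo1, Gclc, Gclm and Sod1, and 0 in Cat, and 33.1% of all promoters held at least 1. GC content ran from 56.3% in Nqo1 to 76.7% in Gclc, above the median of 51.7% over all promoters in each of the 7.

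The sequences of the 3 windows with a core match, and that of Nqo1, the gene with the widest tissue difference, are shown 5′ to 3′ on the strand of the gene, with the core match in capitals. For Gclm and Sod2 the match reads on the opposite strand, as TGACTAAGC and TGACCCTGC. The base of the match farthest from the start lay 172 bases before it in Gclm and 35 bases before it in Sod2, while the match in Nfe2l2, TGACGCCGC, lay 39 to 47 bases after the start. Gclm, Sod2 and Nqo1 are shown by the 250 bases before the start, and Nfe2l2 by 30 bases around its match.
Nfe2l2, chr3:81028950-81028979, minus strand: actgctccgactagccatTGACGCCGCctc
Gclm, chr2:213031885-213032134, plus strand: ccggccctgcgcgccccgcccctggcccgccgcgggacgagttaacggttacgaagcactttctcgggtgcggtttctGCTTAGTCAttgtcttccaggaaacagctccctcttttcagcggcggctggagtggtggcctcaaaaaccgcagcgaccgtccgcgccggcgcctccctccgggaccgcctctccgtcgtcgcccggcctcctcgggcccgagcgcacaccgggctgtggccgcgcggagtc
Sod2, chr1:50050169-50050418, minus strand: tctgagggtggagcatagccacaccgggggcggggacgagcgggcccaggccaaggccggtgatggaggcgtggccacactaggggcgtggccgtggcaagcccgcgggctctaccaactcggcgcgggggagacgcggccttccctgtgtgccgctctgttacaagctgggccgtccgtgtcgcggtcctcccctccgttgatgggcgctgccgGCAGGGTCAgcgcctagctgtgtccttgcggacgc
Nqo1, chr19:52220268-52220517, minus strand: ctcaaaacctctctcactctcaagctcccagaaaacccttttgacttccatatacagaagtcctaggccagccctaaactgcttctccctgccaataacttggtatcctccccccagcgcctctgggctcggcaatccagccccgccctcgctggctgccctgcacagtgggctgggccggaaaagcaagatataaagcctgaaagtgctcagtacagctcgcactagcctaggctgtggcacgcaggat
The 3 genes with a core match had unlike patterns in the tissue: Nfe2l2 was higher in mucosa, Sod2 was lower there, and Gclm passed in neither direction.

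The comparison of mucosa with detrusor asks where in the bladder wall each gene is expressed, first in uninjured rats. In Control rats 3 of the 8 genes were higher in mucosa and 1 was lower at an adjusted p under 0.05 (edgeR quasi-likelihood test, Benjamini-Hochberg adjustment over all genes tested), while 23.3% of all genes tested were higher and 21.2% lower. In SCI-vehicle rats 3 were higher and 3 lower, against 25.4% and 21.7% of all genes. In SCI-inosine rats 3 were again higher and 3 lower, against 22.8% and 19.9%. With 8 genes these shares do not set the list apart from the rest, and the results are those of single genes. Libraries of the tissues did not overlap for 4, 6 and 6 of the 8 genes (Control, SCI-vehicle, SCI-inosine), and for 56.8, 60.7 and 50.3% of all genes.

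Nfe2l2 was the regulator of the list. In Control rats its level was 43.4, 46.1 and 67.3 CPM in the 3 detrusor libraries and 203, 174 and 174 CPM in the 3 mucosa libraries. No detrusor library of any treatment exceeded 94.1 CPM and no mucosa library lay under 168.6 CPM, so the tissues did not overlap. The log2 difference, mucosa minus detrusor, was 1.82 ± 0.18 (SE), a 3.52-fold higher level (95% interval 2.71 to 4.59) with an edgeR adjusted p of 1.23e-06. It was 1.32 ± 0.18 in SCI-vehicle rats (adjusted p = 2.26e-05) and 1.57 ± 0.18 in SCI-inosine rats (adjusted p = 1.01e-05), and it passed in each of the 25 alternatives per treatment.

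Nqo1 encodes a quinone reductase that is a standard readout of Nrf2 activity. It had the widest tissue difference of the 8 genes. Control detrusor libraries held 8.00, 10.9 and 15.5 CPM, and Control mucosa libraries held 118, 146 and 115 CPM. The mucosa level was 11.1-fold higher (95% interval 6.79 to 18.1), a log2 difference of 3.47 ± 0.34 (SE) with an edgeR adjusted p of 9.88e-07. After injury the difference was 2.17 ± 0.31 with vehicle (adjusted p = 4.28e-05) and 2.58 ± 0.32 with inosine (adjusted p = 1.87e-05). The lowest of the 9 mucosa libraries, at 65.3 CPM, lay above the highest detrusor library, at 26.7 CPM.

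Glutathione is made from its amino acids in a first, rate-limiting step by glutamate-cysteine ligase, of which Gclc encodes the catalytic and Gclm the modifier subunit. Both are known Nrf2 targets, and their mRNAs were distributed differently. Gclc was at 27.9, 30.2 and 34.2 CPM in Control detrusor and at 157, 105 and 114 CPM in Control mucosa. Its log2 difference, mucosa minus detrusor, was 2.03 ± 0.33 (SE), 4.07-fold, with an edgeR adjusted p of 9.8e-05, and it was 1.70 ± 0.31 with vehicle (adjusted p = 0.000395) and 1.95 ± 0.32 with inosine (adjusted p = 0.000188). Gclm was at 14.3, 15.7 and 14.0 CPM in Control detrusor and at 17.5, 10.6 and 12.6 CPM in Control mucosa, so that the tissues overlapped. The log2 difference of Gclm was -0.12, with a 95% interval from -0.72 to 0.48, which is 0.607 to 1.4 as a fold. In SCI-vehicle rats it was 0.65 ± 0.28 (edgeR adjusted p = 0.0631), and in SCI-inosine rats 0.07 ± 0.28 (adjusted p = 0.855). Without mucosa SCI-vehicle replicate 3, the lowest Gclm library of its group, the vehicle difference was 0.84 (edgeR adjusted p = 0.0262). Only this 1 of 25 alternatives passed, and over the 25 the difference ran from 0.34 to 0.84.

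The ratio of the subunits within a library depends on no scaling. It reuses the counts behind the Gclc and Gclm levels above, so it is not a separate observation. It was 2.10 ± 0.29 Gclc counts per Gclm count (SD, n = 3) in Control detrusor and 9.30 ± 0.56 in Control mucosa. Injured detrusor spread more widely, from 1.29 to 4.63 with inosine and from 2.80 to 4.69 with vehicle, where the highest value was that of replicate 1. Injured mucosa lay between 6.05 and 10.8. The lowest mucosa ratio lay above the highest detrusor ratio. It is not a ratio of molecules, since the transcripts differ in length.

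Sod2 encodes the manganese superoxide dismutase of mitochondria and Sod1 the copper and zinc enzyme of the cytosol. Sod2 differed between the tissues in the opposite direction to Nfe2l2, Nqo1 and Gclc, with 110.3, 114 and 118 CPM in Control detrusor and 43.1, 44.2 and 31.9 CPM in Control mucosa. Mucosa held 0.349 of the detrusor level (95% interval 0.271 to 0.45), a log2 difference of -1.52 ± 0.17 (SE) with an edgeR adjusted p of 4.42e-06. The difference was -1.55 ± 0.17 with vehicle (adjusted p = 5.12e-06) and -1.35 ± 0.17 with inosine (adjusted p = 2.53e-05). Like the calls of Nfe2l2, those of Nqo1, Gclc and Sod2 passed in each of the 25 alternatives per treatment. Without detrusor SCI-vehicle replicate 1 the vehicle differences of Nfe2l2, Nqo1 and Gclc were 1.47, 2.47 and 2.14. In detrusor Sod2 was also the steadiest of the 8 genes among libraries, with a coefficient of variation of 3.34% in Control rats, 7.20% with vehicle and 6.88% with inosine.

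Sod1 differed less between the tissues. Control detrusor was at 118, 115 and 149 CPM, and Control mucosa at 123, 72.5 and 73.3 CPM, of which replicate 1 lay inside the detrusor range. The log2 difference, mucosa minus detrusor, was -0.51 ± 0.23 (SE) with an edgeR adjusted p of 0.0839, and it passed in 2 of 25 alternatives. Without mucosa Control replicate 1 it was -0.81 (edgeR adjusted p = 0.01). Without mucosa Control replicate 2 or 3, or detrusor Control replicate 3, it was -0.38, -0.39 and -0.39 (edgeR adjusted p = 0.266, 0.261 and 0.251). Mucosa Control replicate 1 carried a detrusor share of 8.18%, and the part of this share in its Sod1 level was not tested. In injured rats Sod1 was lower in mucosa, by a log2 difference of -0.88 ± 0.23 with vehicle (adjusted p = 0.00512) and of -0.75 ± 0.23 with inosine (adjusted p = 0.0161). The call with inosine was lost without detrusor SCI-inosine replicate 3 (adjusted p = 0.05), mucosa SCI-inosine replicate 2 (0.0841) or mucosa SCI-inosine replicate 3 (0.0545).

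Hmox1 encodes heme oxygenase 1, the stress-inducible enzyme that splits heme into biliverdin, iron and carbon monoxide. It was sparse: 9, 32 and 32 counts in the Control detrusor libraries and 28, 35 and 14 counts in the Control mucosa libraries. The tissues overlapped in Control rats, with a log2 difference, mucosa minus detrusor, of -0.43 ± 0.48 (SE, edgeR adjusted p = 0.498). It was lower in mucosa in SCI-vehicle rats, by -1.49 ± 0.50 (adjusted p = 0.0221), and in SCI-inosine rats, by -2.30 ± 0.46 (adjusted p = 0.000898). The vehicle call rested on few counts, 9 to 17 per mucosa library, and was lost without detrusor SCI-vehicle replicate 3 (adjusted p = 0.109), mucosa SCI-vehicle replicate 1 (0.0811) or mucosa SCI-vehicle replicate 2 (0.0522), and with limma-voom (0.0839). The inosine call passed in all 25 alternatives.

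Cat, which encodes the peroxisomal catalase, passed the test in no comparison. Group means ran from 66.9 ± 26.6 CPM (SD, n = 3) in Control detrusor to 86.9 ± 22.9 CPM in SCI-vehicle mucosa, and single libraries from 45.1 to 111 CPM. The log2 difference, mucosa minus detrusor, was 0.25 in Control (95% interval -0.26 to 0.76), 0.16 with vehicle (-0.34 to 0.66) and 0.02 with inosine (-0.49 to 0.52). Without detrusor Control replicate 3, the highest detrusor library at 96.5 CPM, the Control difference was 0.61 (edgeR adjusted p = 0.0393). Only this 1 of 25 alternatives passed, and over the 25 the difference ran from 0.03 to 0.61.

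**Figure D2:**
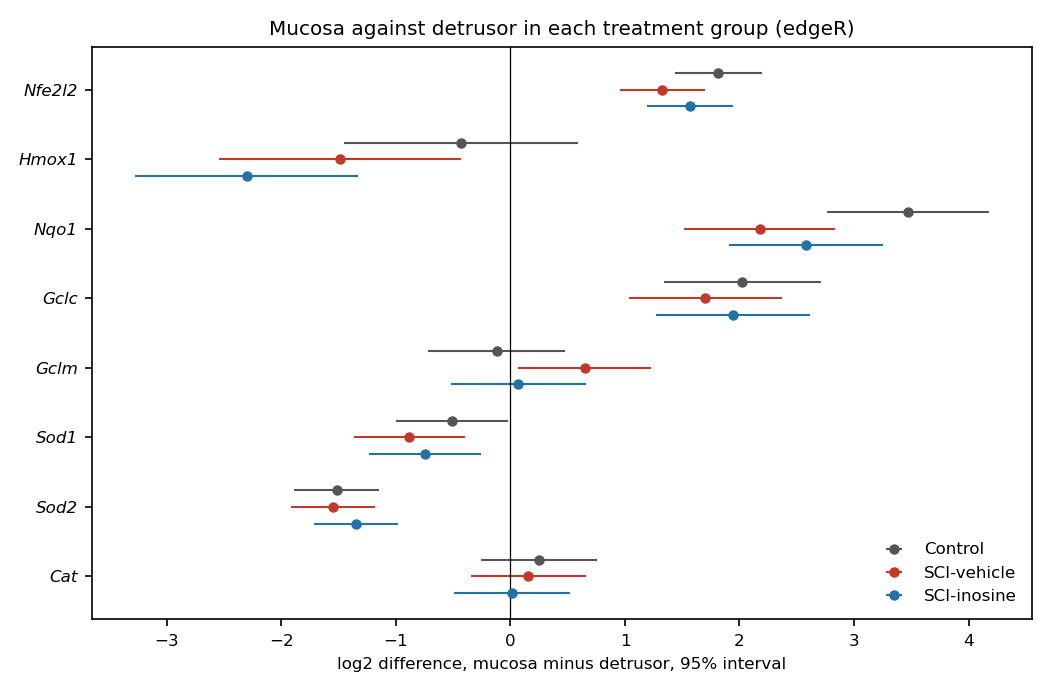
Log2 difference between mucosa and detrusor for each gene, by treatment, from the edgeR model. Points are estimates and lines are 95% intervals, with positive values higher in mucosa. Nqo1, Nfe2l2 and Gclc lie to the right of 0 and Sod2 to the left under all 3 treatments, with Nqo1 farthest to the right at 3.47 in Control.

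The comparison of SCI-vehicle with Control detrusor asks how the muscle wall of injured rats differed. None of the 8 genes passed the adjusted threshold with edgeR, where 0.0762% of all genes tested did, and 3 were under an unadjusted p of 0.05, where 13% of all genes were. DESeq2 and the likelihood ratio test called 0 of the 8 as well. All 8 log2 differences were positive, with a median of 0.41 against 0.01 over all genes tested, but that of Gclm was negative in 2 of 17 alternatives and that of Hmox1 in 1.

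The 3 genes under the unadjusted threshold were Nfe2l2, Gclc and Sod1. Nfe2l2 was at 94.1, 73.3 and 69.9 CPM in SCI-vehicle detrusor, all above the highest Control library at 67.3 CPM. Its log2 difference, SCI-vehicle minus Control, was 0.62 ± 0.19 (SE), 1.54-fold, with an edgeR p of 0.00681 and an adjusted p of 0.231. Gclc was at 82.3, 35.5 and 44.5 CPM, also all above Control, with a log2 difference of 0.83 ± 0.34 (edgeR adjusted p = 0.332). Groups that do not overlap were found for these 2 genes of the 8 and for 20.5% of all genes tested. Sod1 was at 149, 155 and 226 CPM, of which the lowest lay just within the Control range, with a log2 difference of 0.49 ± 0.18 (edgeR adjusted p = 0.294). Without SCI-vehicle replicate 3, the highest Sod1 library, that difference was 0.27 (edgeR adjusted p = 0.697).

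Both Gclc and Nfe2l2 were highest in SCI-vehicle replicate 1, the detrusor library with 25.9% mucosa expression, and both are genes with a higher level in mucosa. Without that library the log2 difference of Gclc was 0.39 (edgeR adjusted p = 0.697) and that of Nfe2l2 was 0.47 (adjusted p = 0.481). Nqo1, at 26.7 CPM in the same library and at 14.6 and 16.8 CPM in the other two, had a log2 difference of 0.78 ± 0.39 (adjusted p = 0.425) that was 0.47 without it. The mucosa share was also entered as a covariate, an alternative chosen after the data were seen. The differences were then 0.43 for Nfe2l2 (edgeR adjusted p = 0.613), 0.33 for Gclc (0.821) and 0.39 for Nqo1. For Sod1, which is lower in injured mucosa, the difference was 0.61 (edgeR adjusted p = 0.492). The share was 25.9% in SCI-vehicle replicate 1 and at most 10.5% in the other detrusor libraries. The covariate is therefore not separate from leaving that library out. The part of mucosa expression in these differences was not tested further. Hmox1, Gclm, Sod2 and Cat had log2 differences of 0.33, 0.08, 0.14 and 0.24, each with a 95% interval that held 0.

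**Figure D3:**
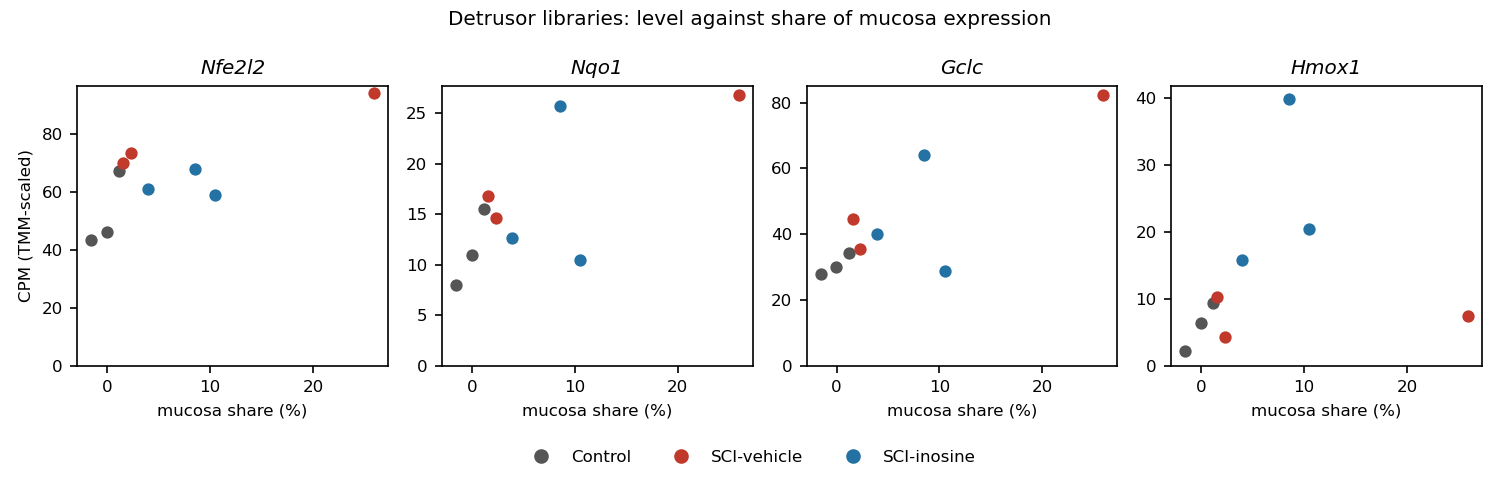
Level (CPM, linear axis from 0) of Nfe2l2, Nqo1, Gclc and Hmox1 in the 9 detrusor libraries against the estimated share of mucosa expression (percent), colored by treatment. The library at 25.9%, SCI-vehicle replicate 1, is the highest of the 9 for Nfe2l2, Nqo1 and Gclc but not for Hmox1, at 7.48 CPM.

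In detrusor of SCI-inosine against Control rats, 0 of the 8 genes passed the adjusted threshold with edgeR, against 0.292% of all genes tested, and 1, Hmox1, was under an unadjusted p of 0.05, against 13.6%. Hmox1 was at 2.18, 6.35 and 9.36 CPM in Control, at 7.48, 4.29 and 10.3 CPM in SCI-vehicle and at 15.9, 20.5 and 40.0 CPM in SCI-inosine detrusor, which are 89, 122 and 188 counts in the last group. All 3 SCI-inosine libraries lay above all 6 others. The SCI-inosine and Control libraries did not overlap for 1 of the 8 genes and for 18.6% of all genes. The share of all genes with 3 libraries above the 6 others was not computed. The log2 difference, SCI-inosine minus Control, was 2.11 ± 0.51 (SE), 4.30-fold with a 95% interval from 1.98 to 9.36, with an edgeR p of 0.00162 and an adjusted p of 0.151.

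Whether Hmox1 passed in this comparison depended on the test, on the genes entered and on the libraries in the model. It passed with DESeq2 (adjusted p = 0.00637), with edgeR's likelihood ratio test (0.0105), with every gene with a count entered (0.0303) and with all 18 libraries in one model (0.0474), and it did not pass in the other 13 alternatives. Over the 17 alternatives the log2 difference ran from 1.62 to 2.56 and the adjusted p from 0.00637 to 0.465. The lowest difference was that without SCI-inosine replicate 3, the library with the most Hmox1. The mucosa shares of the SCI-inosine detrusor libraries were 3.94, 10.5 and 8.52%, all above those of the Control libraries. With that share as a covariate the log2 difference of Hmox1 was 2.01 (edgeR adjusted p = 0.338). Hmox1 was at most 5.78 CPM in the mucosa libraries. The part of the other tissue in the Hmox1 difference was not tested further. SCI-inosine replicate 2 had the fewest genes with a count, 14126.

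The other 7 genes also had positive log2 differences in this comparison, from 0.07 for Cat to 0.53 for Gclc, with a median over the 8 of 0.30 against -0.01 over all genes, and each 95% interval but that of Hmox1 held 0. The sign was negative for Cat in 3 of 17 alternatives and for Gclm in 1. This comparison shares its Control libraries with the previous one, so the positive signs of both are not separate observations.

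Inosine against vehicle in injured detrusor is the comparison that sets the drug apart from the injury. No gene of the whole table passed, 0% of those tested, and 1 of the 8 was under an unadjusted p of 0.05, where 4.38% of all genes were. This was again Hmox1, with a log2 difference, SCI-inosine minus SCI-vehicle, of 1.77 ± 0.49 (SE), 3.41-fold with a 95% interval from 1.61 to 7.23. Its edgeR p was 0.00411 and its adjusted p 0.952, which ran from 0.248 to 1 over the 17 alternatives. Nfe2l2, at 61.0, 58.9 and 68.1 CPM with inosine, lay under all SCI-vehicle libraries, with a log2 difference of -0.35 ± 0.19 (edgeR adjusted p = 0.952). Groups did not overlap for these 2 genes and for 9.29% of all genes. Of the 8 log2 differences 6 were negative, and the 2 positive ones were those of Hmox1 and Gclm. Among 17 alternatives the sign turned in 2 each for Gclm and Sod2 and in 1 each for Gclc, Nqo1 and Sod1. Without SCI-vehicle replicate 1 the differences of Gclc and Nqo1 were positive, at 0.13 and 0.04, and that of Nfe2l2 was -0.20.

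Nqo1 counts per Hmox1 count restate this contrast within a library. The ratio reuses the Hmox1 counts given above, so it is not a separate observation. The ratio was 3.67, 1.72 and 1.66 in Control detrusor, 3.57, 3.41 and 1.64 in SCI-vehicle and 0.798, 0.508 and 0.644 in SCI-inosine. The 3 SCI-inosine ratios lay under those of the other 6 detrusor libraries. Mucosa libraries held ratios from 15.1 to 49, and the part of mucosa expression in the detrusor ratios was not tested. As with the subunits above, this is a ratio of counts and not of molecules, so only its differences between libraries can be read. Both genes are textbook Nrf2 targets. Nqo1 was at 12.7, 10.4 and 25.7 CPM in SCI-inosine detrusor, which overlapped both other detrusor groups.

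**Figure D4:**
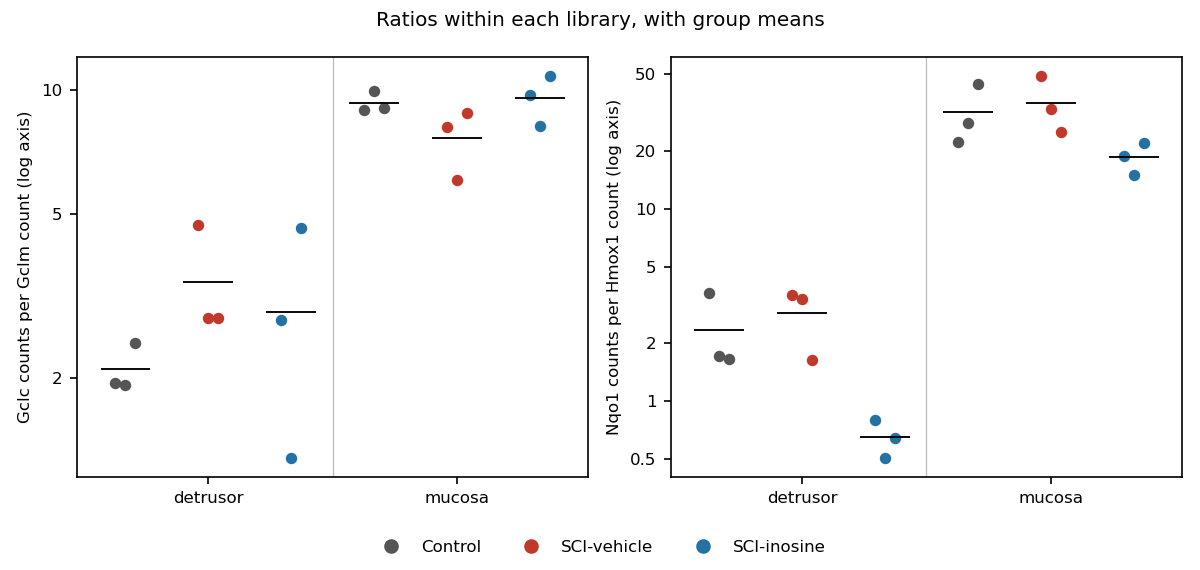
Counts of Gclc per count of Gclm (left) and of Nqo1 per count of Hmox1 (right) in each library, on log axes, by tissue and treatment, with group means as bars. The Gclc ratio separates the tissues, and the Nqo1 ratio is lowest in the 3 SCI-inosine detrusor libraries, between 0.508 and 0.798. Counts are not corrected for transcript length.

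In mucosa, SCI-vehicle against Control, 0% of all genes tested passed the adjusted threshold with edgeR and so 0 of the 8, and 2 of the 8 were under an unadjusted p of 0.05, against 10.2% of all genes. Nqo1 was at 118, 146 and 115 CPM in Control and at 88.1, 92.4 and 81.5 CPM in SCI-vehicle mucosa, with every injured library under every Control library, as was the case in one direction or the other for 15.9% of all genes. The log2 difference, SCI-vehicle minus Control, was -0.56 ± 0.19 (SE), with an edgeR p of 0.0147 and an adjusted p of 0.388. Gclm was at 17.5, 10.6 and 12.6 CPM in Control and at 22.0, 33.0 and 17.0 CPM in SCI-vehicle, which overlapped, with a log2 difference of 0.80 ± 0.28 (edgeR adjusted p = 0.401). Gclc, its partner, had a log2 difference of 0.46 ± 0.22 (adjusted p = 0.503), and Hmox1, on 9 to 17 counts, had -0.76 ± 0.35 (adjusted p = 0.492). Nfe2l2, Sod1, Sod2 and Cat had differences between 0.05 and 0.11 with 95% intervals that held 0. DESeq2 called 0 of the 8 as well.

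With inosine against Control in mucosa, 0 of the 8 genes and 0% of all genes passed with edgeR, and 0 of the 8 were under an unadjusted p of 0.05, against 5% of all genes. Nqo1 was at 109, 65.3 and 114.9 CPM, under Control by a log2 difference of -0.41 ± 0.19 (adjusted p = 0.983). Its highest library lay just under the lowest Control library, both 114.9 CPM as rounded, and groups did not overlap for this gene and for 9.9% of all genes. Gclc, at 231.5, 127 and 151 CPM, had a log2 difference of 0.42 ± 0.22 (adjusted p = 0.995). In inosine against vehicle 0 of the 8 passed, where 0.00635% of all genes did, and 1 was under an unadjusted p of 0.05, against 5.53%. This was Hmox1, at 1.80, 2.79 and 3.26 CPM with vehicle and 5.78, 4.33 and 5.23 CPM with inosine, which did not overlap, as for 9.16% of all genes, with a log2 difference of 0.98 ± 0.35 (edgeR adjusted p = 0.881). These levels rest on 9, 17 and 15 counts against 25, 17 and 25. Control mucosa, at 5.27, 5.21 and 2.57 CPM, overlapped both, and the log2 difference of Hmox1, SCI-inosine minus Control, was 0.21 with a 95% interval from -0.52 to 0.95.

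**Figure D5:**
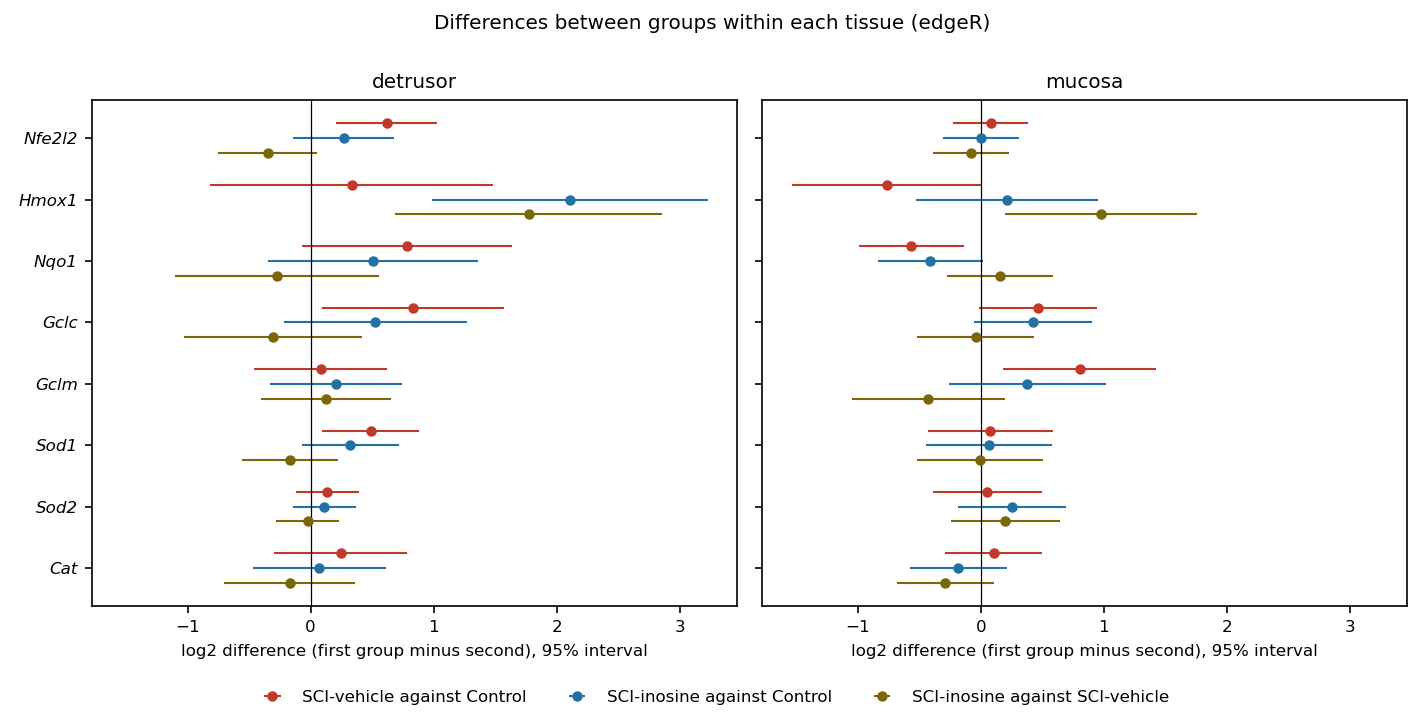
Log2 differences between treatments within detrusor (left) and mucosa (right) for each gene, from the edgeR models. Points are estimates and lines are unadjusted 95% intervals. Most intervals hold 0, and those of Hmox1 with inosine in detrusor lie farthest to the right, at 2.11 against Control and 1.77 against SCI-vehicle.

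The difference of these responses between tissues was tested as an interaction in a model of all 18 libraries. For SCI-vehicle against Control 0 of the 8 genes passed with edgeR, where 0.121% of all genes did, and 1 was under an unadjusted p of 0.05, against 11%. It was Nqo1, whose log2 difference was positive in detrusor, at 0.78, and negative in mucosa, at -0.56, with an interaction, mucosa minus detrusor, of -1.30 ± 0.44 (SE, edgeR adjusted p = 0.305, from 0.126 to 0.569 over 25 alternatives). Without detrusor SCI-vehicle replicate 1, the library with 25.9% mucosa expression, it was -1.002 (adjusted p = 0.421). For SCI-inosine against Control 0 of the 8 and 0% of all genes passed, and 1 of the 8, Hmox1, was under an unadjusted p of 0.05, against 10.4%, with an interaction of -1.87 ± 0.67 (edgeR adjusted p = 0.367).

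Over the 6 groups, the 3 mucosa means of Nfe2l2, Nqo1 and Gclc lay above their 3 detrusor means. In detrusor the order of means was SCI-vehicle, SCI-inosine, Control for these 3 genes and also for Sod1, Sod2 and Cat, at 79.1, 62.7 and 52.2 CPM for Nfe2l2. Without SCI-vehicle replicate 1 the SCI-vehicle means of Gclc (40.0 CPM) and Nqo1 (15.7 CPM) lay under the SCI-inosine means (44.2 and 16.3 CPM), while that of Nfe2l2, at 71.6 CPM, stayed first. For Sod1 and Sod2 the 3 detrusor means lay above the 3 mucosa means. Neighbors within a tissue did not pass the adjusted edgeR test for any of these genes, so the order within a tissue is a description. For Hmox1 SCI-inosine detrusor, at 25.5 ± 12.8 CPM (SD, n = 3), stood first and the other 5 means lay between 2.62 and 7.35 CPM.

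Across the 18 libraries, after the mean of each tissue was taken out, the pattern most like that of Nfe2l2 among the other 7 genes was that of Gclc, with Pearson's r of 0.784 on log2 CPM (0.785 over 9 detrusor and 0.811 over 9 mucosa libraries). Nqo1 followed Gclc in detrusor (r = 0.936) but not in mucosa (-0.199), and Gclm followed Gclc in mucosa (0.893) but not in detrusor (-0.0355). These are descriptions, since the points share their library's depth and tissue purity, and they include the library with 25.9% mucosa expression. Without that library the gene most like Nfe2l2 was Cat (r = 0.822 over 17 libraries), the value for Gclc was 0.676, and Nqo1 with Gclc in detrusor was 0.924 (8 libraries). The likeness was computed only among the 8 genes, because other genes carried no symbols by which to name them. How high r runs over all genes was not computed.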

How the data were processed

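RNA was isolated with TRIzol and miRNeasy columns, ribosomal RNA was depleted, and stranded libraries were sequenced. The authors deposited raw counts per Ensembl gene for the 18 libraries, and their processing notes name FastQC 0.11.9, MultiQC 1.13, Trim Galore 0.6.10, STAR 2.7.10a, SAMtools 1.17, featureCounts 2.0.3 and Rnor_6.0. The strand setting of the counting is not given in the sources used here, so reads of overlapping genes on opposite strands may not be separated.

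Genes with over 1 CPM in at least 3 libraries (15740 of 32754) were tested with the edgeR 4.0.16 quasi-likelihood test (R 4.3.3, TMM scaling), 2-sided, with Benjamini-Hochberg adjustment over all of them and a threshold of 0.05. Comparisons within a tissue used the 9 libraries of that tissue, and those between tissues and the interactions all 18, with no covariate. The biological coefficient of variation was 26.4% in detrusor and 20.0% in mucosa. Errors are SE of log2 differences and 95% intervals are unadjusted. The code was tested on simulated data. Alternatives were DESeq2 1.42.0, its size factors, limma-voom (limma 3.58.1, between tissues and for interactions), the likelihood ratio test, other filters, a replicate block, all libraries in one model, each library left out and, added after the data were seen, a covariate for expression of the other tissue. No pair of replicates differed by less than sampling noise.

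All 8 genes are named in every comparison. The genes and lists were chosen with earlier results of these data known. Symbols were paired with the 8 identifiers when the genes were chosen, and the count table holds identifiers only. Other genes of the pathway, and markers of cell types, were not analysed here for want of symbols, so the labelled tissues were not checked against markers.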

Additional observations from a re-analysis of the deposited data

How the results depend on the processing

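Of 1816 log2 differences recomputed for the 8 genes, 67 had the other sign than the reported value, 0 of them for a gene called in that comparison. Between tissues the alternatives called 4 to 5 of the 8 genes in Control, 5 to 7 in SCI-vehicle and 5 to 6 in SCI-inosine rats. Within a tissue and in the interactions they called 0, with every single library left out as well, except for Hmox1 in detrusor, SCI-inosine against Control, where the count was 1 with DESeq2, 1 with the likelihood ratio test, 1 with every gene with a count and 1 with all 18 libraries in one model. At an unadjusted p under 0.05 the counts were 3, 1 and 1 in detrusor (SCI-vehicle against Control, SCI-inosine against Control, SCI-inosine against SCI-vehicle), 2 in mucosa for SCI-vehicle against Control, 1 there for SCI-inosine against SCI-vehicle and 1 in each interaction. Single genes gained a call in 8 cases and lost one in 7, all named above except Sod1 between Control tissues with edgeR's filterByExpr (adjusted p = 0.0481).

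Replicate numbers were not taken to pair the libraries. Same-numbered libraries of a tissue correlated between -0.257 and 0.464 (18 pairs). Each library was also set against the 3 libraries of each other treatment in its tissue. In 13 of 36 such cases the best of the 3 had its own number. Detrusor and mucosa libraries of one treatment and number correlated between 0.00559 and 0.233 (9 pairs, median 0.111), against -0.241 to 0.115 (18 pairs, median -0.041) for unlike numbers. All 9 were positive, and which libraries share a bladder is not stated. The replicate block joined libraries of one number over all treatments, and so over different rats. A term for each bladder was not fitted, so the block does not show what such a pairing would change. With the block, 0 of the 8 genes passed within a tissue or in an interaction, as without it. Between tissues 4, 6 and 6 passed (Control, SCI-vehicle, SCI-inosine), also as without it. Hmox1 in detrusor, SCI-inosine against Control, had an edgeR adjusted p of 0.0547 with the block. Over all genes the block gave 8 calls in place of 12 in detrusor for SCI-vehicle against Control, 75 in place of 46 for SCI-inosine against Control, and 59 and 4 in place of 19 and 0 in the interactions.

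Depth limits Hmox1 most, with 9 to 188 counts per library. DESeq2 called 335 genes of the whole table in detrusor, SCI-vehicle against Control, and 349 for SCI-inosine against Control, where edgeR called 12 and 46. The cause was not tested.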
